A study of Mus musculus with 40 samples.

Results

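AP-1 is a family of dimeric transcription factors whose subunits belong to the FOS, JUN, ATF and MAF groups of basic leucine zipper (bZIP) proteins. The subunit genes Fos, Fosb, Fosl1, Fosl2, Jun, Junb, Jund, Atf3, Maff and Batf were described here in bone marrow-derived macrophages (BMDMs), which are grown from marrow in M-CSF. The 10 genes were chosen by symbol and all 10 were found among the 27179 genes of the table. All 10 also passed the filter on low expression, a mean value of at least log2 of 5, which 13103 genes passed over all libraries.

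Lipopolysaccharide (LPS), a component of the bacterial outer membrane, activates macrophages through TLR4. The MAP kinases downstream of this receptor induce and phosphorylate AP-1 subunits, and many subunit mRNAs are immediate-early transcripts with AU-rich elements that make them short-lived. FOS proteins dimerise with JUN proteins, whereas JUN proteins can also pair with each other. ATF3, MAFF and BATF lack the transactivation domain of FOS and are known to limit or redirect the activity of bZIP partners, and ATF3 is known as a brake on TLR-induced cytokine genes.

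BMDMs came from adult male mice of a mixed C57BL/6J and 129 background, either wild type (WT) or with a total knockout of Cpeb4 (Cpeb4-/-), which encodes an RNA-binding protein of cytoplasmic polyadenylation elements (CPEs). Cells were left untreated (0 hr) or given 10 ng/ml LPS of E. coli 0111:B4 for 1, 3, 6 or 9 hr. Each of 8 mice gave all 5 times, so the 40 libraries form 10 groups of 4. The WT mice are numbered 25, 88, 69 and 87 and the Cpeb4-/- mice 3, 62, 2 and 55. The first pair of each genotype is in batch 1 of the labels and the second pair in batch 2. No cage held both genotypes, so cage and genotype cannot be told apart. The knockout is present in every cell of the donor, and ages were not taken from the labels.

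Values are the regularized log (rlog) that the authors deposited, on a log2 scale, so a difference of 1 corresponds to a 2-fold change. The transformation corrects for library size and pulls weakly expressed genes toward their mean, so the folds of Fosb and Fosl1 are understated. Depth cannot be read from this table. Differences were tested with limma, with p-values adjusted over all tested genes, and a gene was called at an adjusted p under 0.05.

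All 8 macrophage markers were expressed, with Adgre1 between 15.51 and 16.45 and Csf1r between 15.09 and 15.93. Several defining markers of other cells were at or near 0, among them Cd3e with a highest rlog of 0.87, Ly6g of -2.27 and Hba-a1 of 0. Other genes of the same lists were expressed. Their highest values were 8.51 for Lck (T cell), 7.70 for S100a8 and 6.01 for S100a9 (neutrophil) and 6.55 for Cd79b (B cell). Those of Xcr1 (dendritic cell) and Pdgfrb (stroma) were 7.06 and 9.43. Lck and Pdgfrb rose between 1 and 3 hr of LPS in WT BMDMs (by 2.77 and 2.10), so their highest values are not untreated levels. Reads of Cpeb4 itself separated the genotypes at 6 hr only, with 10.09 to 10.67 in WT and 8.74 to 9.66 in Cpeb4-/- BMDMs (difference -1.27, adjusted p = 0.0011). At 0, 1, 3 and 9 hr the groups overlapped, and at 1 hr WT mice 87 and 88 were at 7.68 and 8.08, below all 4 Cpeb4-/- libraries. The row counts reads over the whole gene, and the labels do not give the deleted part. Whether transcripts that lack that part are counted too was not tested, so the check of the labels is partial.

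In WT BMDMs, all 10 transcripts rose within 1 hr of LPS and then split by their later course. Fos, Fosb, Jun, Junb, Fosl1 and Maff fell again between 1 and 3 hr. Batf went on rising, to 11.7 times its untreated level at 6 hr. Atf3 rose by a further 0.21 (adjusted p = 0.031), a call that 5 alternatives did not give, and Fosl2 and Jund held their 1 hr level until 3 hr. Between 6 and 9 hr, 6 transcripts fell and none rose, whereas after quantile normalization 3 fell and Jun rose (0.20, adjusted p = 0.0023).

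**Figure D1:**
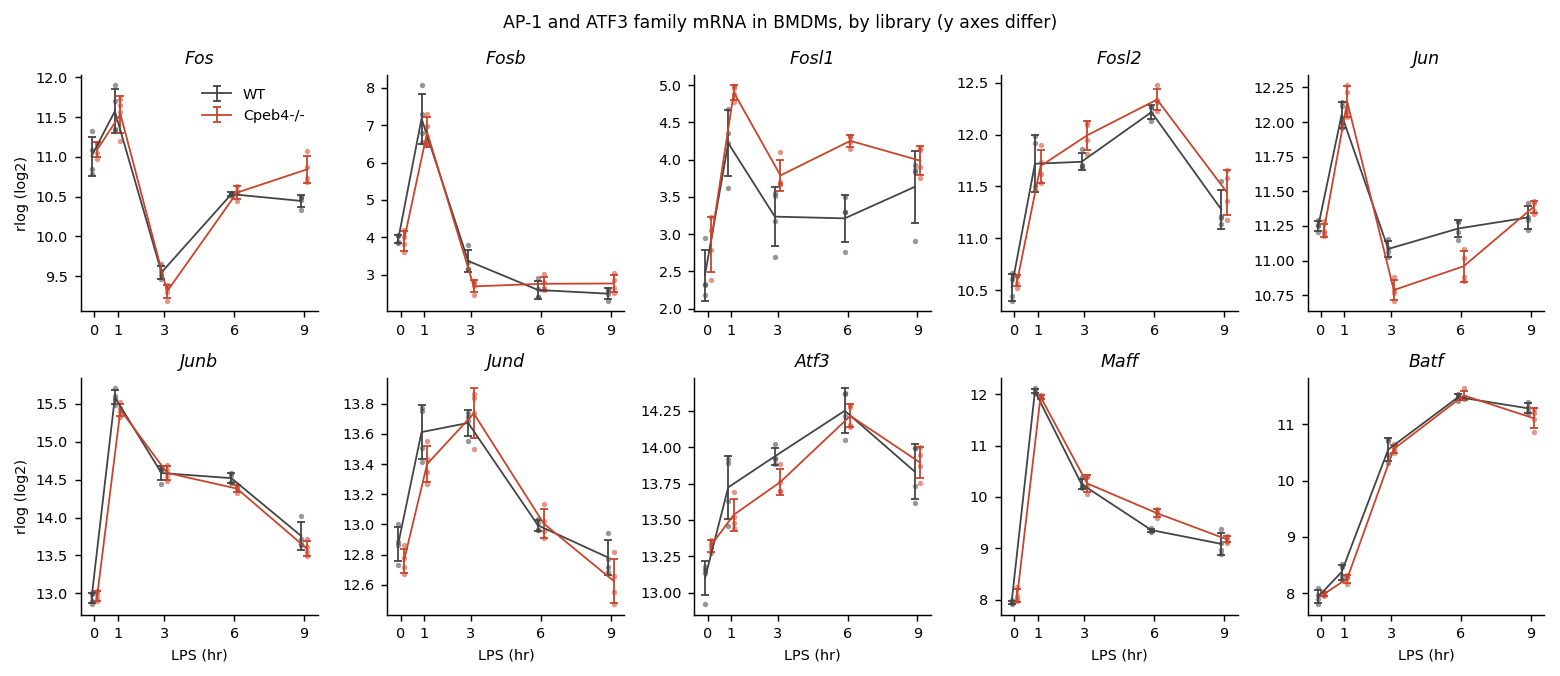
rlog value (log2 scale, y axes differ) of each gene against time after LPS (hr) in WT (grey) and Cpeb4-/- (red) BMDMs; points are libraries, lines join group means and bars are SD of 4 mice. Fosb and Maff form a sharp peak at 1 hr, Batf climbs to 6 hr, and the Fosl1 lines stand apart at 6 hr, with all Cpeb4-/- points at or above 4.15 and all WT points at or below 3.50.

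At 1 hr against 0 hr, 10 of 10 were called higher and none lower in WT BMDMs, beside 19.4% and 18.3% of all genes called in these directions. The same counts were reached in Cpeb4-/- BMDMs (22.6% and 19.4%). At 3 hr against 0 hr, 7 were higher and 3 lower in each genotype, beside 33.5% and 36.4% of all genes in WT and 33.7% and 36.2% in Cpeb4-/- BMDMs. At 6 hr against 0 hr, 6 were higher and 2 lower in WT (39.7% and 40.2%) and 7 were higher and 3 lower in Cpeb4-/- BMDMs (38.4% and 39.5%). At 9 hr, 6 were higher and 2 lower in WT (37.0% and 36.6%) and 7 and 2 in Cpeb4-/- BMDMs (35.7% and 35.6%). Most genes of these cells were called at the later times.

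From 1 to 3 hr, 2 rose and 6 fell in WT (29.3% and 33.7%) and 4 rose and 6 fell in Cpeb4-/- BMDMs (29.5% and 32.7%), the additional ones being Fosl2 (0.30) and Jund (0.33). That Fosl2 change was not called without mouse 2 (0.20, adjusted p = 0.14) or 3 (0.28, adjusted p = 0.050), and after quantile normalization neither was called (0.12 for Fosl2 and 0.063 for Jund). Whether these changes differed between genotypes was not tested. From 3 to 6 hr, 5 rose and 3 fell in both genotypes (34.8% and 32.0% in WT, 31.7% and 31.3% in Cpeb4-/- BMDMs). From 6 to 9 hr, none rose and 6 fell in WT (24.9% and 29.5%), or 3 without mouse 87, and 2 rose (Fos and Jun) and 6 fell in Cpeb4-/- BMDMs (24.8% and 26.6%). The rise of Fos was not called without mouse 2 (adjusted p = 0.076) or 62 (adjusted p = 0.10).

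FOS is the founding partner of JUN. Fos was at 11.09, 10.78, 11.32 and 10.85 in untreated WT mice 25, 88, 69 and 87, and at 11.70, 11.35, 11.90 and 11.34 at 1 hr. Every mouse moved up, by 0.56 ± 0.05 (SD of the within-mouse changes, n = 4), 1.48-fold. The adjusted p of 4.7e-05, from the limma fit of group means, does not use the pairing by mouse. At 3 hr the WT values were 9.57, 9.51, 9.65 and 9.46, below all untreated libraries, with a change of -1.46 ± 0.17 from 0 hr (adjusted p = 1.3e-14). Fos then rose by 0.99 between 3 and 6 hr (adjusted p = 4.9e-10), to 10.53 ± 0.02. It was still lower than before LPS at 9 hr (change -0.56, adjusted p = 1.6e-05).

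FOSB shares the FOS architecture and is strongly inducible. Fosb was low in untreated WT BMDMs (3.95 ± 0.11) and reached 7.29, 6.78, 8.07 and 6.56 at 1 hr in mice 25, 88, 69 and 87, a change of 3.23 ± 0.58 (9.36-fold). It dropped by 3.81 to 3.37 ± 0.31 at 3 hr, with all 4 mice below their untreated value. At 9 hr it was at 2.49 ± 0.14, the lowest of its 5 times. The fall below the untreated level at 3 hr (change -0.58, adjusted p = 0.015) was not called without mouse 25 (-0.48, adjusted p = 0.10).

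FOSL1 (FRA-1) and FOSL2 (FRA-2) are FOS relatives without its strong transactivation domain. Fosl1 was at 2.45 ± 0.34 in untreated WT BMDMs and 4.22 ± 0.44 at 1 hr, where all 4 mice were higher (change 1.78, adjusted p = 2.3e-08). Fosl2 was at 10.53 ± 0.13, 11.72 ± 0.27, 11.74 ± 0.08, 12.22 ± 0.07 and 11.28 ± 0.19 at 0, 1, 3, 6 and 9 hr. It therefore peaked at 6 hr, where its lowest library (12.13) was above every library of the other times. Between 6 and 9 hr Fosl2 fell by 0.94 in WT (adjusted p = 1.5e-09).

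JUN is the central subunit that pairs with all FOS proteins. Jun rose by 0.80 ± 0.07 at 1 hr in WT BMDMs (adjusted p = 4.6e-15), from 11.25 ± 0.03 to 12.05 ± 0.09. It returned to 11.08 ± 0.06 at 3 hr, 0.17 below its untreated mean (adjusted p = 0.0065, and 0.060 without mouse 69). It was within 0.06 of the untreated mean at 6 and 9 hr, where no change was called. After quantile normalization Jun was lower than untreated in WT at 6 hr (-0.39, adjusted p = 8.8e-08) and 9 hr (-0.19, adjusted p = 0.0033). In Cpeb4-/- BMDMs the change at 9 hr was 0.17 (adjusted p = 0.0057), and -0.075 with that scaling (adjusted p = 0.23).

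JUNB is a weaker activator that can restrain JUN. Junb was at 12.86, 12.90, 13.01 and 12.99 in untreated WT mice 25, 88, 69 and 87 and at 15.48, 15.60, 15.56 and 15.70 at 1 hr. The rise of 2.65 ± 0.08 was 6.26-fold and alike in every mouse (adjusted p = 6.3e-28). At 9 hr Junb was still 0.82 above the untreated mean (adjusted p = 1.6e-13), with all 4 mice higher. In Cpeb4-/- BMDMs this change was 0.63, and 0.067 without a call after quantile normalization (adjusted p = 0.35).

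JUND is the constitutive JUN protein of many resting cells. Jund rose by 0.74 at 1 hr and was 0.80 above untreated at 3 hr in WT BMDMs, then fell by 0.68 between 3 and 6 hr. Its direction depended on the scaling: after quantile normalization it was lower than untreated at 6 hr in WT (-0.66) and Cpeb4-/- BMDMs (-0.49). At 9 hr its change was -0.09 in WT and -0.13 in Cpeb4-/- BMDMs without a call, and -0.62 and -0.66 with that scaling (adjusted p = 3.1e-09 and 8.3e-10).

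ATF3 is an inducible repressor. Atf3 was already abundant, at 13.10 ± 0.12 in untreated WT BMDMs, and reached 13.72 ± 0.22, 13.94 ± 0.06, 14.25 ± 0.15 and 13.83 ± 0.19 at 1, 3, 6 and 9 hr. Its change at 6 hr was 1.15 ± 0.06 (2.22-fold, adjusted p = 1.5e-14), with all 4 mice higher, and 0.24 after quantile normalization (adjusted p = 0.0035). After quantile normalization the further rise between 1 and 3 hr turned to -0.038 in WT and -0.017 in Cpeb4-/- BMDMs. With that scaling the changes from untreated in Cpeb4-/- BMDMs were -0.11, -0.12 and -0.014 at 1, 3 and 9 hr, and none was called. The WT rise between 3 and 6 hr (0.31) was then 0.0046 and the WT change at 9 hr 0.11 (adjusted p = 0.19). The further WT rise between 1 and 3 hr was also not called with no filter (adjusted p = 0.054), with only the 8 libraries compared (0.096) or without mouse 25 (0.071) or 69 (0.18).

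MAFF is a small MAF protein that dimerises with CNC-type bZIP factors. Maff had the largest change of the genes at 1 hr. It was at 7.95, 7.92, 8.00 and 7.94 in untreated WT mice 25, 88, 69 and 87, and at 12.03, 12.11, 12.07 and 12.02 at 1 hr. The change of 4.10 ± 0.06 was 17.2-fold (adjusted p = 4.0e-32). Maff then fell by 1.81 and 0.89 over the next intervals and was still 2.19-fold above untreated at 9 hr.

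BATF pairs with JUN proteins and with interferon regulatory factors. Batf moved by only 0.43 ± 0.10 in the first hour and by 2.18 ± 0.27 between 1 and 3 hr (adjusted p = 2.6e-23). It was at 11.50, 11.53, 11.42 and 11.48 at 6 hr in WT mice 25, 88, 69 and 87, 3.54 ± 0.13 above untreated. At 9 hr it kept a change of 3.35 ± 0.18, so Batf was the gene of the family farthest above its untreated level at 6 and 9 hr in both genotypes.

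**Figure D2:**
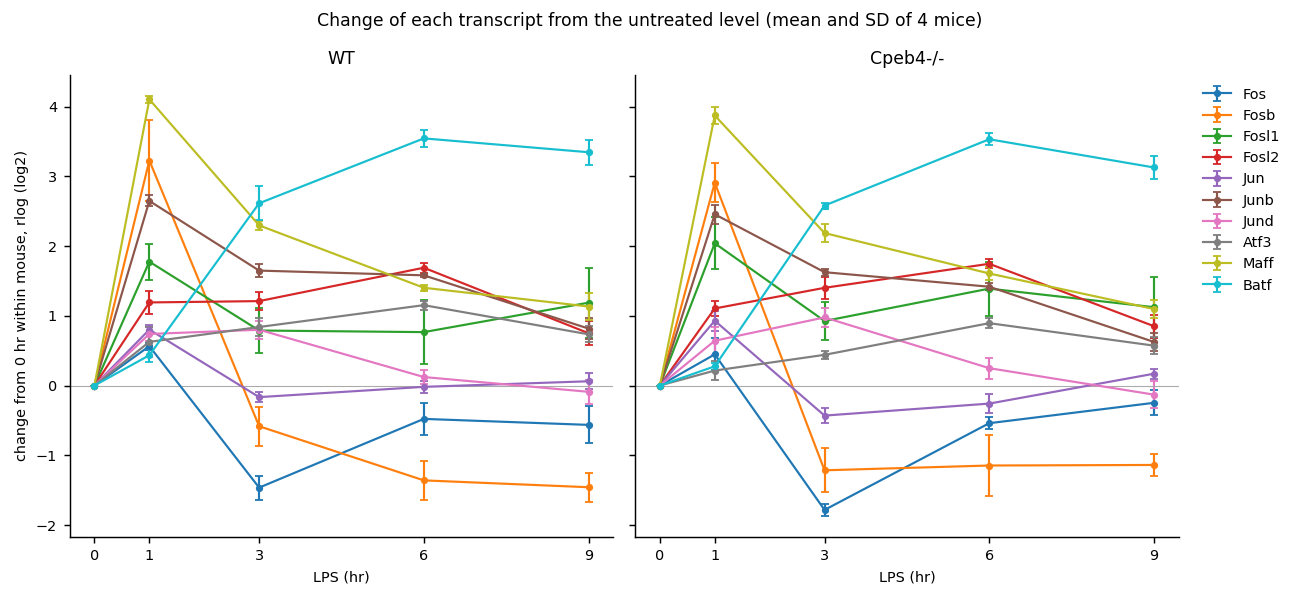
Mean change from 0 hr within mouse (rlog, log2 scale) against time after LPS (hr) in WT (left) and Cpeb4-/- BMDMs (right), with SD of 4 mice. Maff (4.10 in WT) and Fosb (3.23) lead at 1 hr, Batf leads from 3 hr on, and Fos and Fosb lie below 0 from 3 hr on in both genotypes.

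Across the 5 times, the genotype means spanned 4.69 for Fosb, 4.10 for Maff, 3.54 for Batf, 2.65 for Junb and 2.03 for Fos in WT BMDMs. The narrowest spans were 0.89 for Jund, 0.97 for Jun and 1.15 for Atf3. The median over the 13103 genes was 0.81. The highest mean was at 1 hr for Fos, Fosb, Fosl1, Jun, Junb and Maff, at 3 hr for Jund and at 6 hr for Fosl2, Atf3 and Batf, in both genotypes. Neighbouring times overlapped between libraries in several orders, for example 1 and 3 hr for Jund and 1 and 9 hr for Fosl1 in WT BMDMs.

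Levels between genes were compared per length, as rlog minus log2 of the transcript length in kb. On this scale Junb (12.08), Jund (12.13) and Atf3 (12.17) stood highest in untreated WT BMDMs, and Fosb (2.13) and Fosl1 (1.55) lowest. At 1 hr Junb led at 14.73, followed by Jund at 12.87 and Atf3 at 12.79, while Fos and Jun were at 10.50 and 10.38. These per-length values take the annotated GENCODE transcript with the longest 3' UTR and are levels, not changes.

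The promoters of Fos, Jun and Atf3 are shown because the Fos and Jun transcripts rose and fell together in the first 3 hr and Atf3 is the inducible repressor of the family. They are the 250 bases before the RefSeq start (GRCm38.p6), given 5' to 3' on the gene's strand. Capitals mark motif matches on either strand. Fos lies on chromosome 12 (window chr12:85473640-85473889, plus strand), Jun on chromosome 4 (chr4:95052223-95052472, minus strand) and Atf3 on chromosome 1 (chr1:191183334-191183583, minus strand).
Fos: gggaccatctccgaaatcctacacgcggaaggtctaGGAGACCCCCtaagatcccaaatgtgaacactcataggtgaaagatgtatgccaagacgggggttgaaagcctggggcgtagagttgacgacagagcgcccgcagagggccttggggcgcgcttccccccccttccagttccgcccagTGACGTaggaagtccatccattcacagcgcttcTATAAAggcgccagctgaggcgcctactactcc
Jun: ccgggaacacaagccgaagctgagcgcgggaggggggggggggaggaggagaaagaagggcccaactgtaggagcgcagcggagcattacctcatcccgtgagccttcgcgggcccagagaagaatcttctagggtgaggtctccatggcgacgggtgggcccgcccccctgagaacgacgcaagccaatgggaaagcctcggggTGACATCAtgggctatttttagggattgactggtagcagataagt
Atf3: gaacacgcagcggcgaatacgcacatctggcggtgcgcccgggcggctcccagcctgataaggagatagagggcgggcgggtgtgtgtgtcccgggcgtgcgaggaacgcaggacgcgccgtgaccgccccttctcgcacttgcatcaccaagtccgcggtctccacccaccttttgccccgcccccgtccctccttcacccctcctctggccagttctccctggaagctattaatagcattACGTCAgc

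The Fos window holds TGACGT, the first 6 letters of the cAMP response element TGACGTCA, 66 to 61 bases before the start, TATAAA 33 to 28 bases before it, and a match to the NF-kB site on the reverse strand. The Jun window holds TGACATCA, a variant of the AP-1 element, 45 to 38 bases before the start. The Atf3 window holds the reverse complement of TGACGT 8 to 3 bases before the start. Of 32851 RefSeq promoter windows of this length, 6.47% hold TGACGT, 12.4% TATAAA, 3.90% an NF-kB site, 2.93% TGACATCA, 4.46% the AP-1 element TGACTCA and 1.55% the full TGACGTCA, counted on both strands with overlaps between motifs allowed. None of the 3 windows holds TGACTCA. Among the other genes, the second of 3 Maff starts has the full TGACGTCA 29 to 22 bases before it. A RefSeq promoter was available for 9 of the 10 genes, Fosl1 being the exception. The windows of Junb and Jund held none of the searched motifs. The motif matches are letters in a window and were not tested as binding sites.

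AU-rich elements and CPEs in the 3' UTR are the elements the study is about, so both were counted in the longest GENCODE 3' UTR of each gene. CPE here means the forms TTTTAT and TTTTAAT alone, which is narrower than the 7 forms counted by the study. The pentamer ATTTA occurred in 9 of the 10 genes (65.2% of 21005 genes have at least 1) and a CPE, TTTTAT or TTTTAAT, in 7 (56.7%). Fosl2 had 8 pentamers and 5 CPEs in 4653 bases, Fos 4 and 3 in 815, Maff 4 and 1 in 1221, and Jun 4 and 2 in 1233. Junb had 2 and 1 in 485 bases, Fosl1 1 and 2 in 638, and Fosb 1 and 1 in 2302. Atf3 (1186 bases) and Jund (533 bases) had 3 and 1 pentamers with no CPE, and Batf (335 bases) had neither. With all 7 forms, which add the form TTTTAAAT, the form TTTTAAGT and the shorter forms TTTTACT or TTTTCAT or TTTTGT, 9 of the 10 genes held at least 1 (72.8% of all genes do). Fosl2 then had 17, Fosb 8, Jund 3 and Atf3 1, and Batf still had none. The nonamer TTATTTATT, a fuller AU-rich element, was found in Fos, Fosl2 and Maff, and in 7.67% of all genes. Single sites of the genes that differed between genotypes are given as DNA letters, 5' to 3', with the element in capitals and positions counted from the stop codon.
Fos, bases 632 to 661: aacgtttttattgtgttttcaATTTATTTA
Fos, bases 627 to 652: atgaaaacgtTTTTATtgtgttttca
Jun, bases 1028 to 1057: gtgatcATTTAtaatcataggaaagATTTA
Jun, bases 655 to 680: tatataatttTTTTATgttttgtttc
Fosl1, bases 546 to 575: agcctccaccgcaagggcagctgctATTTA
Fosl1, bases 92 to 117: ccagcagatcTTTTATctcttccgac
Maff, bases 1033 to 1062: acaaataaatcacATTTAatcttatATTTA
Maff, bases 1013 to 1038: tggacttataTTTTATatctacaaat

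The comparison of Cpeb4-/- with WT BMDMs asked which of these transcripts differed between the genotypes and when. Jun was lower in Cpeb4-/- BMDMs at 3 and 6 hr, Fosl1 and Maff were higher at 6 hr, and Fos was higher at 9 hr. None of the 10 was called at 0 or 1 hr. Fosl2, Junb, Jund, Atf3, Fosb and Batf were called at no time. Of all genes, 1.31%, 1.91%, 3.68%, 16.3% and 7.91% were called at 0, 1, 3, 6 and 9 hr, beside 0, 0, 1, 3 and 1 of the 10.

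**Figure D3:**
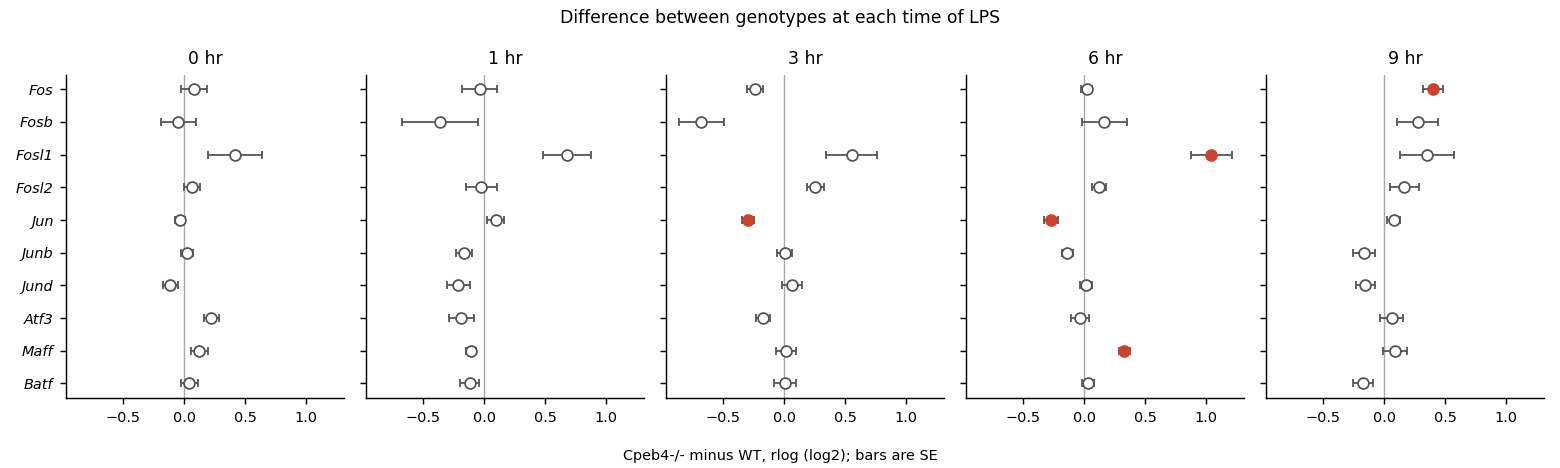
Cpeb4-/- minus WT difference in rlog (log2 scale) with SE for each gene at each time after LPS; filled red points have an adjusted p under 0.05 and open points do not. Fosl1 at 6 hr (1.04) lies farthest from 0, and Jun is the gene filled at both 3 and 6 hr (-0.30 and -0.27).

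At 3 hr Jun was at 11.09, 11.16, 11.02 and 11.06 in WT mice 25, 88, 69 and 87 and at 10.71, 10.79, 10.77 and 10.88 in Cpeb4-/- mice 3, 62, 2 and 55. The groups did not overlap, and the difference was -0.30 (SE 0.05, adjusted p = 0.017), or 0.81 of the WT level. It was -0.38 in batch 1 and -0.22 in batch 2. The call was lost when mouse 2, 3, 25 or 62 was left out, with an adjusted p between 0.058 and 0.068 and differences of -0.27 to -0.30.

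At 6 hr Jun was at 11.15, 11.28, 11.21 and 11.29 in WT mice 25, 88, 69 and 87 and at 10.85, 10.88, 11.02 and 11.09 in Cpeb4-/- mice 3, 62, 2 and 55. The groups again did not overlap (difference -0.27, SE 0.06, adjusted p = 0.0069), and the difference was -0.35 in batch 1 and -0.20 in batch 2. By 9 hr Jun was at 11.31 ± 0.08 in WT and 11.39 ± 0.05 in Cpeb4-/- BMDMs, with overlap. Between 6 and 9 hr Jun rose by 0.43 in Cpeb4-/- BMDMs (adjusted p = 2.6e-08), while the WT change of 0.08 was not called. After quantile normalization the WT change was called (0.20, adjusted p = 0.0023). Whether the changes from 6 to 9 hr differed between genotypes was not tested. The exons of Jun overlap an antisense gene, Junos, and the library kit was not stranded in the labels, so their reads cannot be told apart.

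Fosl1 differed most. At 6 hr it was at 2.76, 3.30, 3.30 and 3.50 in WT mice 25, 88, 69 and 87 and at 4.32, 4.24, 4.31 and 4.15 in Cpeb4-/- mice 3, 62, 2 and 55. The gap between the groups was clear, with a difference of 1.04 (SE 0.17, 2.06-fold, adjusted p = 0.0018), and the difference was 1.25 in batch 1 and 0.83 in batch 2. These are low values, and under the stricter filter of a mean rlog of at least 5 Fosl1 was not tested. The Cpeb4-/- mean was also the higher one at 0, 1, 3 and 9 hr, by 0.42, 0.68, 0.55 and 0.35, without a call (adjusted p = 0.34, 0.079, 0.15 and 0.34). At 1 and 3 hr all 4 Cpeb4-/- libraries were above all 4 WT libraries. Fosl1 exons overlap the opposite-strand gene Ccdc85b, whose reads the counts may share.

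Maff at 6 hr was at 9.34, 9.33, 9.36 and 9.40 in WT mice 25, 88, 69 and 87 and at 9.77, 9.68, 9.70 and 9.59 in Cpeb4-/- mice 3, 62, 2 and 55. These did not overlap (difference 0.33, SE 0.05, 1.26-fold, adjusted p = 0.0012), with 0.39 in batch 1 and 0.27 in batch 2. At 1 hr the order was the reverse, with 12.02 to 12.11 in WT and 11.90 to 11.98 in Cpeb4-/- BMDMs, and the difference of -0.11 was not called (adjusted p = 0.12).

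Fos at 9 hr was at 10.33, 10.50, 10.50 and 10.45 in WT mice 25, 88, 69 and 87 and at 10.69, 11.07, 10.87 and 10.74 in Cpeb4-/- mice 3, 62, 2 and 55. Every Cpeb4-/- library lay above every WT library (difference 0.40, SE 0.08, 1.32-fold, adjusted p = 0.018), and the difference was 0.47 in batch 1 and 0.33 in batch 2. Without mouse 25 or mouse 87 the adjusted p was 0.066 and 0.055, and without a filter on low expression it was 0.063. At 3 hr the order was the reverse, with 9.46 to 9.65 in WT and 9.19 to 9.38 in Cpeb4-/- BMDMs (difference -0.24, adjusted p = 0.064).

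Counted by overlap alone, 1, 2, 4, 4 and 1 of the 10 had groups that did not overlap at 0, 1, 3, 6 and 9 hr, beside 10.5%, 15.7%, 13.6%, 20.2% and 16.9% of all genes. The gene at 0 hr was Atf3, at 13.28 to 13.36 in Cpeb4-/- and 12.92 to 13.18 in WT BMDMs (difference 0.22, adjusted p = 0.094). At 3 hr Fosb was at 3.15 to 3.81 in WT and 2.46 to 2.83 in Cpeb4-/- BMDMs (difference -0.68, adjusted p = 0.070). At 6 hr Junb was at 14.46 to 14.59 in WT and 14.32 to 14.43 in Cpeb4-/- BMDMs (difference -0.14, adjusted p = 0.058).

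For Batf, Jund and Fosl2 the differences at 6 hr were 0.03, 0.01 and 0.12, with SE of 0.05 each. Batf was at 11.48 ± 0.05 in WT and 11.51 ± 0.08 in Cpeb4-/- BMDMs at 6 hr, and at 11.28 ± 0.09 and 11.11 ± 0.17 at 9 hr. The difference of Batf at 9 hr was -0.18 (adjusted p = 0.21), and it was called without mouse 2 (-0.23, adjusted p = 0.032). Jund at 9 hr differed by -0.15 (adjusted p = 0.24), and was also called without mouse 2 (-0.22, adjusted p = 0.025). Fosl2 at 3 hr differed by 0.25 (adjusted p = 0.076). It was called without mouse 55 (0.31, adjusted p = 0.045) or mouse 88 (0.24, adjusted p = 0.046).

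A change of the genotype difference after LPS was tested against the difference at 0 hr. None of the 10 was called at 1, 3, 6 or 9 hr by limma, beside 0.00763%, 0.206%, 2.94% and 1.76% of all genes. At unadjusted p under 0.05 stood Atf3, Maff and Junb at 1 hr, Atf3, Fos, Jun and Fosb at 3 hr, Atf3 and Jun at 6 hr, and Fos and Junb at 9 hr. Jun at 6 hr came nearest to a call (-0.24, adjusted p = 0.078), and with the mouse as a replicate block it was called (adjusted p = 0.042). It was also called without mouse 55 (-0.28, adjusted p = 0.040). Atf3 rose by 0.63 at 1 hr in the WT mice and by 0.21 in the knockout mice, and these rises differed by -0.41 (adjusted p = 0.90). The Atf3 rise in Cpeb4-/- BMDMs was not called when any of mice 2, 3, 55 or 62 was left out (adjusted p = 0.081 to 0.26).

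At 6 hr, 4 of the 8 macrophage markers were called lower in Cpeb4-/- BMDMs, among them Lyz2 (-0.38) and Csf1r (-0.25), and none higher, beside 9.92% and 6.40% of all genes. At 3 hr Lyz2 (-0.55) and Cd14 (-0.30) were lower, and at 9 hr Cd14 (-0.38), Fcgr1 (-0.31) and Cd68 (-0.25), with Pdgfrb higher (0.65). Cd14 was already lower at 0 hr (-0.32) and was also lower at 1 hr (-0.38). Besides Pdgfrb, markers of other cells were called in both directions. Clec9a (0.88) and Gata2 (0.74) were higher at 0 hr, and Zbtb46 was higher at 3 hr (1.10). Xcr1 was lower at 6 hr (-0.49), and Lck was lower at 6 and 9 hr (-0.39 and -0.55). The log2 of the summed macrophage marker values was 19.24 to 19.32 in WT and 18.92 to 19.14 in Cpeb4-/- BMDMs at 6 hr. In untreated cells it was 18.98 to 19.29 and 18.65 to 18.91, and it did not overlap between genotypes at any of the 5 times. Lyz2 weighs most in this sum, at 17.72 to 18.91, beside a highest value of 16.52 among the other macrophage markers (Cd14). Adgre1, Itgam and Mertk were called at no time. Of the 6 stromal markers, Pdgfrb was called higher at 6 hr (0.67) and the log2 sum ran from 8.57 to 8.75 in WT and 9.21 to 9.48 in Cpeb4-/- BMDMs. The highest values of the other stromal markers ran from 1.68 (Lum) to 4.62 (Col1a1). Pdgfrb also rose after LPS in WT BMDMs, by 0.46 at 1 hr and by 2.10 between 1 and 3 hr. A change in the number of cells of a type and a change in RNA per cell cannot be told apart in bulk samples. The part of these shifts in the results for Jun, Fosl1, Maff and Fos was not tested.

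The genes whose pattern was most like each subunit over the 40 libraries are given as a description. The libraries share mice and times, so these r values largely follow the time course. For Junb they were Cxcl2 (Pearson's r = 0.99), Tnf (0.98) and Csrnp1 (0.98), and for Maff Gem (0.99), Ppp1r15a (0.99) and Tnfsf9 (0.98). Fosb was nearest to Egr2 (0.96), Dusp8 (0.95) and Egr3 (0.94), and Fosl2 to Zc3h12a (0.96), Ptgs2 (0.95) and Il1a (0.95). Batf was nearest to Hdc (0.99), Ccl5 (0.99) and Tma16 (0.99), and Atf3 to Ccl7 (0.95), Ccl12 (0.93) and Hspa5 (0.93). For Fos they were Tbcel (0.94), Fgd4 (0.93) and Ranbp9 (0.93), and for Jun Chka (0.93), Nuak2 (0.92) and Gtf2ird2 (0.91). Jund was nearest to Gtf2b (0.97), Efna2 (0.95) and Fam133b (0.94), and Fosl1 to Jag1 (0.87), Flrt3 (0.85) and Ifrd1 (0.85).

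Among the 10 genes themselves, Junb and Maff had the highest r (0.96), followed by Fosb with Jun (0.87), Atf3 with Batf (0.84) and Fos with Jun (0.79). The lowest were Fosb with Batf (-0.74) and Fos with Batf (-0.60).

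**Figure D4:**
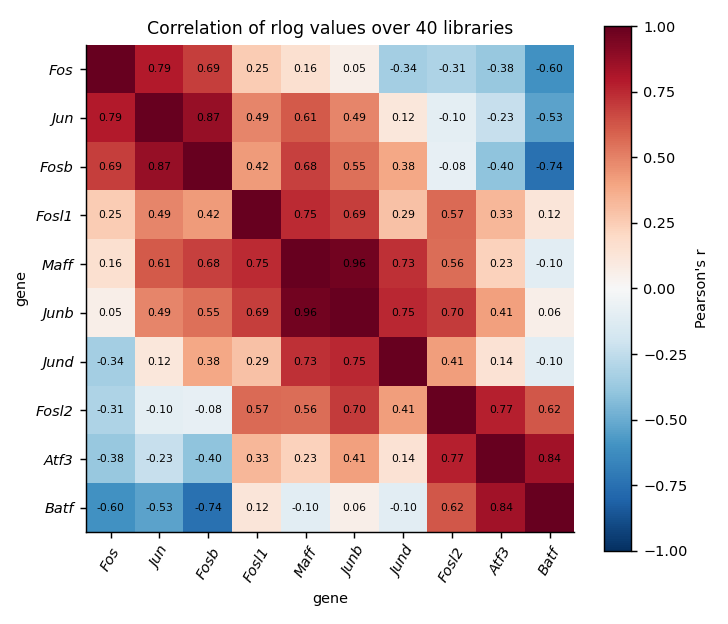
Pearson's r of rlog values between each pair of genes over 40 libraries, from -1 (blue) to 1 (red), with the value in each cell. Fos, Jun and Fosb form a block with r from 0.69 to 0.87, Junb and Maff share 0.96, and Fosl2, Atf3 and Batf form another block with r from 0.62 to 0.84.

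Other bZIP genes, the MAP kinases above AP-1, SRF and MEF2 factors, immediate-early genes and known targets were taken from hand-written lists. These lists were chosen with earlier results of these data known. At 1 hr against 0 hr in WT BMDMs, 14 of 16 immediate-early genes rose and 1 fell, with Egr1 at 4.07, Nr4a1 at 3.61, Zfp36 at 2.91 and Egr3 at 2.80, beside 19.4% of all genes called higher and 18.3% lower. Between 1 and 3 hr, 14 of the 16 fell and 1 rose (Egr1 -4.14, Nr4a1 -3.87), beside 33.7% and 29.3% of all genes. The median change of the list was 1.82 and then -1.17, beside 0.02 and -0.05 over all genes. Of 28 other bZIP genes, 12 rose and 5 fell at 1 hr in WT BMDMs, led by Jdp2 (2.23), a JUN dimerisation partner, and Cebpb (1.73). Of 20 tested MAP kinase genes 6 rose and 2 fell, led by Mapkapk2 (0.90) and Map2k3 (0.87), and of 9 SRF and MEF2 factors 3 rose and none fell, to be read beside the same shares of all genes.

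Of 20 AP-1 targets, 16 rose and none fell at 1 hr in WT BMDMs, among them Cxcl2 (4.95), beside the same 19.4% and 18.3% of all genes. Of 10 cytokine and inflammatory genes known to be restrained by ATF3, 8 rose and none fell, with Cxcl1 at 5.45 and Ifnb1 at 4.70. At 3 hr all 10 were above untreated (33.5% of all genes were), and between 6 and 9 hr, 9 of the 10 fell and none rose (29.5% and 24.9%). Given how the lists were chosen, these counts are a description and not a test.

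Between genotypes at 6 hr, 6 of the 28 other bZIP genes were higher and 7 lower in Cpeb4-/- BMDMs, beside 6.40% and 9.92% of all genes. The largest were Cebpa (0.60), a myeloid C/EBP factor, Batf3 (0.54) and Batf2 (-0.49). Of 21 MAP kinase genes 3 were higher and 3 lower, with Map2k4 (-0.53), a kinase above JNK, Mapk8 (0.47), which encodes the JUN kinase JNK1, Map3k8 (-0.33) and Map3k5 (0.29). Of 20 AP-1 targets 6 were higher and 4 lower, led by Timp1 (0.73), Mmp12 (0.52) and Mmp9 (0.44), and Spp1 was lower (-0.40). Mmp12 and Spp1 were called in these directions at all 5 times, untreated cells included, with 0.51 to 0.58 for Mmp12 and -0.40 to -0.54 for Spp1. The median difference of the targets was 0.12, beside -0.02 over all genes. Of 16 immediate-early genes Nr4a1 was higher (0.65) and Dusp1 (-0.40), Zfp36 (-0.23) and Klf6 (-0.22) were lower. Dusp1 encodes a phosphatase of p38 and JNK, and Zfp36 encodes tristetraprolin, which destabilises mRNAs with AU-rich elements. Elk3 was the single SRF and MEF2 factor called (0.45).

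Of the 10 genes known to be restrained by ATF3, 3 were higher and 2 lower in Cpeb4-/- BMDMs at 6 hr (6.40% and 9.92% of all genes), with Il12a (0.94), Cxcl1 (0.70), Il12b (-0.53) and Il6 (0.48). Atf3 itself differed by -0.04 at that time (SE 0.07). At 9 hr Il12a was higher (1.11) and Ccl4 (-0.62) and Tnf (-0.46) were lower (4.69% and 3.22% of all genes).

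At 3 hr, 1 of 28 other bZIP genes was higher (Nfe2l2, 0.27) and 2 were lower (Crem -0.33, Nfil3 -0.21), beside 1.81% and 1.87% of all genes. Of 16 immediate-early genes Egr2 (0.49), Klf2 (0.46) and Myc (0.34) were higher and Egr1 (-0.35) was lower. At 1 hr, 4 other bZIP genes were lower and none higher, Jdp2 (-0.38), Ddit3 (-0.38), Cebpb (-0.36) and Crem (-0.36), beside 0.976% of all genes called higher and 0.938% called lower. At 9 hr Map3k5 (0.72) and Mapk8 (0.37) were higher and Map2k4 was lower (-0.22), and Vegfa (0.87), Mmp9 (0.62), Mmp12 (0.58) and Spp1 (-0.49) led the 5 higher and 2 lower of 20 AP-1 targets, beside 4.69% and 3.22% of all genes. At 0 hr no gene of the bZIP, MAP kinase, SRF and MEF2, immediate-early or ATF3-restrained lists was called by limma. Of the 20 AP-1 targets 2 were higher before LPS, Mmp12 (0.51) and Plau (0.34), and Spp1 was lower (-0.49), beside 1.31% of all genes called in either direction.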

How the data were processed

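mRNA of BMDMs from 4 WT and 4 Cpeb4-/- mice at 5 times was sequenced by the authors from poly(A) libraries. The authors aligned reads with STAR 2.3.0e to mm10, counted them with featureCounts and deposited log2-scale rlog values, made with DESeq2, for 40 libraries. Counts were not used here, so depth and count tests were not available. Groups, mice, batches and cages came from the labels.

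WT and Cpeb4-/- libraries of each time were compared with limma 3.58.1 (eBayes with trend, R 4.3.3) after genes whose rlog averaged under log2 of 5 were left out. Changes over time and their difference between genotypes used one fit of 10 group means over 13103 genes. Benjamini-Hochberg adjusted p-values under 0.05 were called. A library of the same mouse at another time deviated alike: the deviations from the group means correlated with a median r of 0.29 over 80 pairs, against -0.09 for different mice, so mice pair the times. The reported p-values of changes over time do not use this pairing, which only the replicate block among the alternatives does. The SD printed with a change is that of the within-mouse changes, so the p-value beside it does not measure that spread. On simulated data for the 6 hr comparison (13005 genes), 73 of 99 genes changed by 0.5 and 93 of 99 changed by 1 were recovered, with 9 false calls in all. The simulated noise was independent between genes. Changes under 0.5, such as the genotype differences called for Jun, Maff and Fos, were not simulated, so their recovery is not known.

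The 10 genes, the lists and the marker genes were chosen with earlier results of these data known. The text names all 10 genes, up to 4 called genes of each list with the largest difference, the 3 genes with the highest r for each, and Cpeb4. Some genes of the lists are not reported here by name. Motifs were searched in RefSeq promoters (GRCm38.p6) and GENCODE vM21 3' UTRs. Exons of 4 of the 10 genes (Fosl1, Jun, Junb and Jund) overlap another annotated gene. Alternatives were no filter, a stricter filter (rlog averaging 5 or more), robust or trendless eBayes, quantile normalization, batch as a covariate, all 40 libraries or only the 8 libraries compared, a replicate block and leaving out each mouse. Python 3.11.15, numpy 2.4.6, pandas 2.3.3 and matplotlib 3.10.9 were used for summaries and figures.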

Additional observations from a re-analysis of the deposited data

Results flagged for a closer look

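Of 100 groups of 4 libraries, 5 held a library that stood apart from the other 3, about as many as chance gives (1 in 20). Atf3 in untreated WT BMDMs was 12.92 in mouse 25 and 13.14 to 13.18 in the others. Fosl1 was 4.10 in Cpeb4-/- mouse 62 at 3 hr, above 3.67 to 3.70, and 2.91 in WT mouse 25 at 9 hr, below 3.83 to 3.93. Fosl2 was 11.86 in WT mouse 69 at 3 hr, above 11.68 to 11.71. Junb was 14.45 in WT mouse 88 at 3 hr, below 14.63 to 14.64 in the others.

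Between 6 and 9 hr Fos moved up in all 4 Cpeb4-/- mice (mean 0.29, from 0.17 to 0.43) and down in all 4 WT mice (mean -0.09, from -0.20 to -0.002). The difference of the mean changes was 0.38, and it was not tested.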

How the results depend on the processing

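For the changes over time, the count of called genes equalled the reported one in 155 of 210 alternatives and differed in 55, by more than 1.5-fold in 1. Between genotypes at 1 hr the count was 2 with all 40 libraries in one fit (Fosl1 and Jund) and 1 with the replicate block, and 0 to 1 when each mouse was left out. At 3 hr it was 2 in both of these fits (Jun and Fosb) and 0 to 4 when each mouse was left out (0 without mouse 2, 3, 25 or 62, 4 without mouse 88). At 9 hr it was 0 with no filter and 0 to 3 when each mouse was left out (0 without mouse 25 or 87, 3 without mouse 2). The change between 6 and 9 hr in WT BMDMs was called for 3 to 6 genes when each mouse was left out (3 without mouse 87). The departure of the genotype difference at 6 hr from that at 0 hr was called for 1 gene with the replicate block (Jun) and for 0 to 1 when each mouse was left out. Beyond these, the block ended no call, and made 1 more for a single gene, Fosl1 between 3 and 6 hr in Cpeb4-/- BMDMs (0.46, adjusted p = 0.043). Under quantile normalization the direction reversed for Jund at 6 hr (-0.66 in WT and -0.49 in Cpeb4-/- BMDMs), for Jund between 1 and 3 hr (-0.23) and 6 and 9 hr (0.038) in WT, and for Jun at 9 hr (-0.19 in WT and -0.075 in Cpeb4-/- BMDMs). It also reversed for Atf3 between 1 and 3 hr (-0.038 in WT and -0.017 in Cpeb4-/- BMDMs) and at 1, 3 and 9 hr in Cpeb4-/- BMDMs (-0.11, -0.12 and -0.014). The cause of these changes was not tested. Under a mean rlog of at least 5, Fosl1 was tested in no comparison and Fosb only between genotypes at 1 hr, since they otherwise fall under it.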

Other observations

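At 1 hr the WT mice of cage 9 (87 and 88) differed from WT mice 25 and 69 in several of the genes. Fosb was 6.56 and 6.78 in the first pair and 7.29 and 8.07 in the second. Fosl2 was 11.46 and 11.51 against 11.92 and 11.99, and Fos was 11.34 and 11.35 against 11.70 and 11.90. Jund went the other way, with 13.75 and 13.77 against 13.42 and 13.51, as did Atf3, with 13.89 and 13.92 against 13.63 and 13.46. Cpeb4 was 7.68 and 8.08 in mice 87 and 88 and 9.35 and 9.46 in mice 25 and 69 at this time. Of the Cpeb4-/- mice at 1 hr, mouse 2 had the highest Atf3 (13.69) and Jund (13.55) and the lowest Cpeb4 (8.22) and Fosl2 (11.53). Its Fos (11.65) and Fosb (6.98) were not low, as they were above those of mouse 3 (11.20 and 6.46). Mouse 3 shares cage 104 with mouse 2 but had Atf3 at 13.45 and Cpeb4 at 9.35. The WT values split cage 9 from mice 25 and 69, which came from cages 101 and 100. All of these values were chosen after they were seen and were not tested.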
